A study of Drosophila melanogaster with 2 samples.

Results

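HmgD and HmgZ are neighbouring fruit fly (Drosophila melanogaster) genes that encode small, abundant DNA-bending chromatin proteins with an HMG box. They were taken by symbol from the Ensembl annotation and are 2 of 17947 annotated genes, or 2 of 13968 protein-coding genes. Every peak that reached within 5 kb of the pair was read in all deposited peak lists. The peaks come from ChIP-seq of the protein encoded by CG5953, fused to enhanced green fluorescent protein (eGFP). Chromatin was taken from whole embryos aged 0 to 24 h that carried the transgene, and was pulled down with an antibody to green fluorescent protein. There was 1 group with 2 biological replicates of 1 transgenic strain, so no groups could be compared. Controls were not analysed here. The labels do not say what drives the fusion, and a peak in whole embryos is an average over their cell types and ages. The pair was chosen by the signal of its peaks in these same lists, so its values are given as a description without a test.

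The HMG box is a fold that binds the minor groove of DNA and bends it. In proteins such as HmgD and HmgZ it has little preference for sequence. In Drosophila, HmgD is a major protein of early embryonic chromatin, at a stage when the usual linker histone is scarce, and HmgZ is its close relative. Both genes lie on arm 2R (dm6, the Release 6 assembly) and run in opposite directions with overlapping 5' parts. HmgD (FBgn0004362) is on the plus strand from 21701458 to 21716727 and HmgZ (FBgn0010228) on the minus strand from 21697488 to 21707861. The genes overlap over 6404 bp. Each has 4 annotated transcripts from 3 transcription start sites (TSS), and all 4 share 1 coding structure. The coding sequences are 336 bp in HmgD and 333 bp in HmgZ, and were identical at 236 of 327 aligned bases (72.2%).

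The tagged protein gave 4 peaks within 4.02 kb, at the 5' parts of the 2 genes, and none at their coding exons, in the conservative peak set. That set holds the peaks that repeated between the replicates by the irreproducible discovery rate (IDR), which is low for peaks that rank high in both of 2 lists. Each peak has a signal value, the authors' own measure of peak strength, whose unit is not stated. The summed signal of the 4 peaks was 952, of which the strongest peak held 714. Of the protein-coding genes, 35.3% had a conservative peak within 5 kb. Only 70 of the 13968 had more than 4 such peaks, 126 had exactly 4, and 38 had a higher summed signal. Longer genes were read over wider windows, and HmgD spans 15270 bp and HmgZ 10374 bp. The choice of the pair used these peak values.

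**Figure D1:**
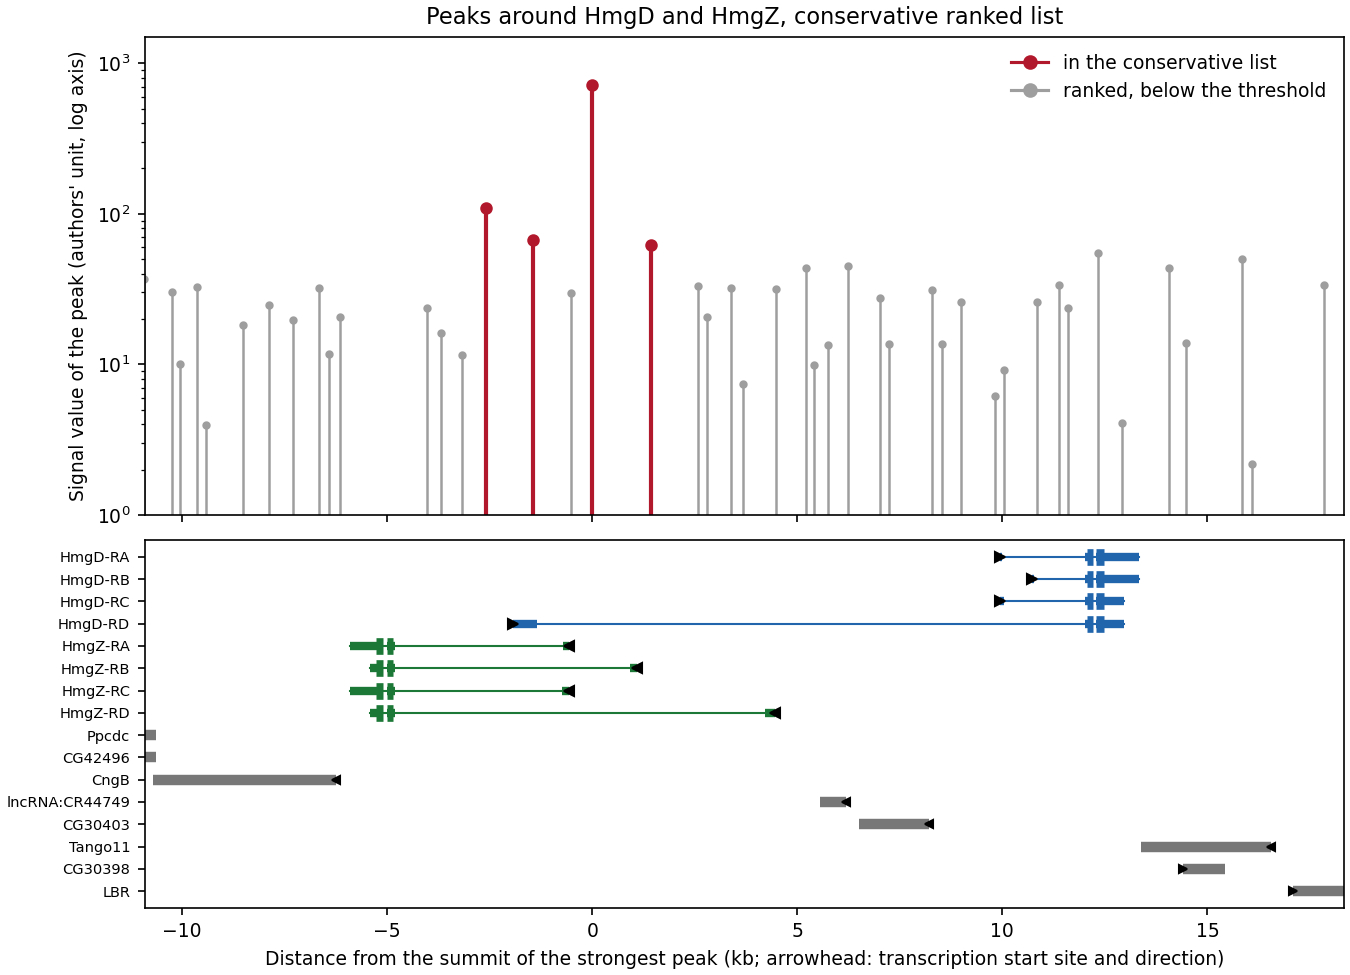
Peaks of the ranked list of both libraries around HmgD and HmgZ (top, signal value on a log axis) and the annotated transcripts (bottom, thick boxes coding, thinner boxes untranslated, arrowheads TSS), against distance from the strongest summit in kb. The 4 conservative peaks, in red, sit together where the 2 genes overlap or just beside it, and the 42 ranked peaks that missed the threshold, in grey, have signals of at most 54.6.

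The strongest peak ran from 21703283 to 21703583, with its summit at 21703402, where the genes overlap. Its signal was 714, rank 14 of the 3015 conservative peaks on the chromosome arms and rank 4 of 573 on arm 2R. Its IDR was 1e-05, the same value as in each replicate's own ranked list. Its score was 1000, the highest possible, which the next and the weakest peak of the pair also had. The replicates' own signals were 457 in replicate 1 and 248 in replicate 2, or 352 ± 147 (SD, n = 2). The replicates therefore differed by 1.84-fold at this peak. The summit lay 572 bp upstream of the TSS that HmgZ-RA and HmgZ-RC share. It lay 1099 bp downstream of the HmgZ-RB start and 1944 bp downstream of the HmgD-RD start, in the first introns of HmgD-RD, HmgZ-RB and HmgZ-RD. Among the 1650 conservative peaks with a summit over 500 bp from any TSS it was the fifth strongest, and it was one of 7 such peaks among the 25 strongest of all.

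The next peak, from 21700665 to 21700960, had a signal of 109 and rank 949. Its summit lay 645 bp upstream of the HmgD-RD start and within the first intron of all 4 HmgZ transcripts. The replicates' own signals were 62.6 and 52.3, or 57.4 ± 7.30 (SD, n = 2), and the IDR was 0.000478. The strongest peak thus had 6.56 times the signal of the next one. Only these 2 peaks were also in each replicate's own thresholded list, where 26.9% of protein-coding genes in replicate 1 and 24.1% in replicate 2 had a peak within 5 kb. A second thresholded set of both libraries, the optimal set, held all 4, against 38% of genes with a peak.

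The peak inside the untranslated exon, from 21701820 to 21702115, had a signal of 67.2 and lay in the 5' UTR of HmgD-RD, 510 bp downstream of its start. Its replicate signals were 30.3 and 33.9 (32.1 ± 2.52, SD, n = 2). The weakest, from 21704685 to 21704980, had a signal of 61.7, with its summit 332 bp upstream of the HmgZ-RB start and in the first introns of HmgD-RD and HmgZ-RD. Its replicate signals were 36.3 and 33.8 (35.1 ± 1.75, SD, n = 2). Both were weaker than the median of the conservative set, which was 83.0, and neither was in a replicate's own thresholded list. Their IDR values were 0.00399 and 0.00274. The weakest peak was placed least evenly, with summits 78 bp apart in the replicates, against 18 bp for the strongest peak. For replicate 1 alone the matching peak had a score of only 33, where 830 was the lowest score in any thresholded list.

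**Figure D2:**
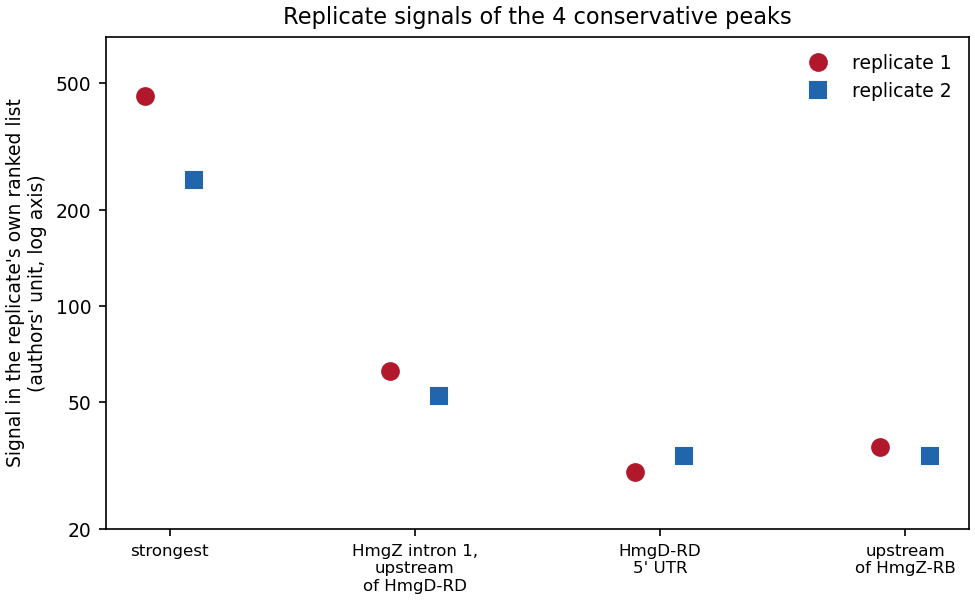
Signal of the matching peak in the ranked list of each replicate (log axis) for the 4 conservative peaks, ordered by their signal in the conservative set, with circles for replicate 1 and squares for replicate 2. The strongest peak is at 457 and 248, and the 3 others lie between 30.3 and 62.6 with little distance between the replicates.

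The strongest peak was uneven between the replicates for a peak of its strength. Its log2 ratio of replicate 1 over replicate 2 was 0.88. Over the 2990 conservative peaks with a match in both ranked lists, the median log2 ratio was 0.13, with quartiles of -0.19 and 0.46. Of these, 271 (9.06%) differed by as much or more in either direction. Among the 50 strongest conservative peaks replicate 1 was higher at 46, their median log2 ratio was 0.30, and none but the HmgD and HmgZ peak reached 0.88. The other 3 peaks of the pair had log2 ratios of 0.26, -0.16 and 0.10. The rank of the strongest peak was 8 of 1975 in replicate 1's own thresholded list and 31 of 1660 in replicate 2's. It was thus among the strongest peaks of either library.

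**Figure D3:**
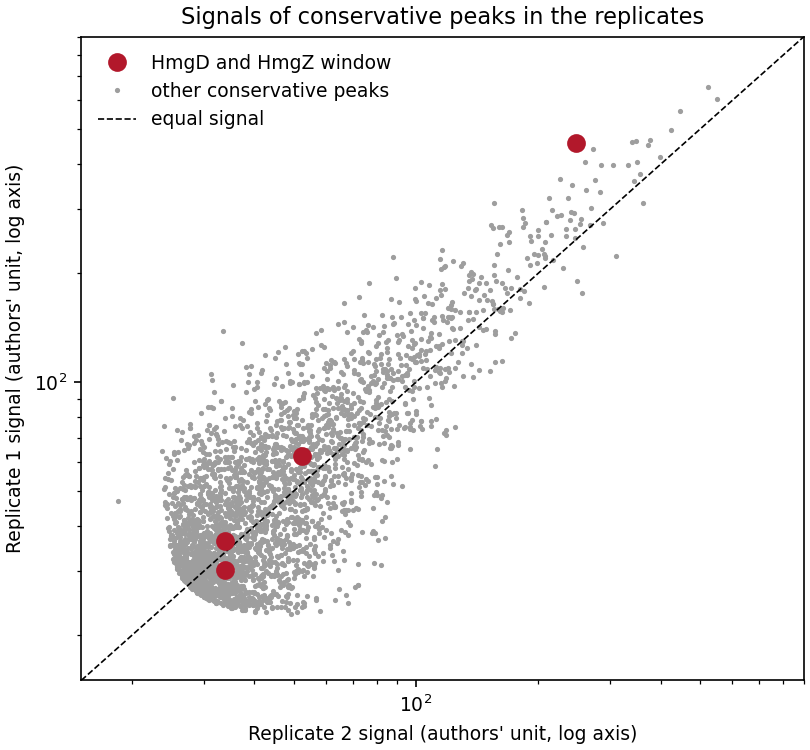
Signal of each conservative peak in replicate 1 against replicate 2 (log axes), with the 4 peaks around HmgD and HmgZ in red, the other peaks in grey and a dashed line at equal signal. The strongest red peak, at 457 and 248, lies above the line and at the upper edge of the strong peaks, while the 3 others lie close to the line.

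The strongest peak was also broad for its strength. It was 301 bp wide in the conservative set, the widest of the 50 strongest peaks, whose median width was 199 bp. Replicate 1 placed it over 292 bp and replicate 2 over 138 bp, against medians of 191 and 152 bp for the same 50 peaks. In replicate 2 it was therefore not broad, and 11 of the 50 were narrower. Weaker peaks say little about width, because 92.3% of all conservative peaks, the other 3 at the pair among them, were 296 bp wide.

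With a limit of 500 bp, most of the conservative summits of the pair did not count for a TSS. Within 500 bp of a TSS, HmgD had 0 conservative summits and HmgZ had 1, the weakest of the 4, where 11.3% of protein-coding genes had at least 1. The summits nearest to the HmgD-RD start were just outside that limit, at 510 and 645 bp, and the strongest summit was 572 bp from the HmgZ-RA start. With a limit of 1000 bp, HmgD had 2 summits with a strongest signal of 109, and HmgZ had 3 with a strongest signal of 714, where 13.8% of genes had at least 1. With 250 bp neither gene had one, against 8.73% of genes. A rule of 500 bp thus gives HmgZ a signal of 61.7 and misses the peak of 714 beside it. The optimal set gave the same counts for both genes at 250, 500 and 1000 bp, against 9.31%, 12.1% and 15% of protein-coding genes. In the thresholded lists of replicates 1 and 2 neither gene had a summit within 250 or 500 bp, against 6.34% and 8.09% of genes in replicate 1 and 5.68% and 7.35% in replicate 2. Within 1000 bp each gene had 1 summit in either list, against 9.82% of genes in replicate 1 and 8.89% in replicate 2. The downstream starts of HmgD, which are 9954 and 10734 bp from the strongest summit, had no conservative peak within 5 kb.

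A weaker peak close to the HmgZ-RA start differed strongly between the replicates. In the ranked list of both libraries it ran from 21702741 to 21703036, with its summit 59 bp upstream of that TSS and a signal of 29.6. Replicate 1's own signal was 7.04 and replicate 2's was 35.2. The IDR was 0.616 in the ranked list behind the conservative set and 0.0226 in the one behind the optimal set. In replicate 2's own ranked list its summit lay 9 bp upstream of the TSS, with an IDR of 0.0110 and a score of 813, just short of the lowest score in a thresholded list, 830. In replicate 1's own ranked list the score was 85. Replicate 2's list and the ranked list behind the optimal set thus came nearer to a thresholded peak at the HmgZ-RA start than the other 2 lists did.

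Below the threshold, the ranked list of both libraries behind the conservative set held 42 further peaks in the 29.2 kb around the pair, with signals of 2.18 to 54.6 and a median of 23.7. Of these, 5 had summits where the genes overlap, and 1 lay in a coding exon. That one, in the last coding exon of HmgD, was the strongest of the 42, with a signal of 54.6, replicate signals of 20.1 and 27.6 and an IDR of 0.0372. The peak that came closest to the threshold had an IDR of 0.0122, a signal of 44.7 and replicate signals of 26.2 and 27.1. It lay 51 bp upstream of the start of lncRNA:CR44749, a noncoding gene inside the long first intron of HmgD-RD. In the ranked list behind the optimal set the same peak had an IDR of 0.209. There the closest was a peak from 21706633 to 21706928, with a signal of 32.2 and an IDR of 0.0159, against 0.181 in the list behind the conservative set. The order of these weaker peaks thus differed between the lists. In all, 46 ranked peaks lay in this window, and 21 of them overlapped another ranked peak. Windows of the same length around protein-coding genes held a median of 39 (quartiles 33 and 44), which puts the pair at percentile 82.5 of genes. The percentile was 92.5 in the ranked list behind the optimal set. It was 83.6 in replicate 1's own ranked list and 87.3 in replicate 2's.

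The other genes in the window carried no conservative peak at their promoters. CngB, which encodes a subunit of a cyclic nucleotide-gated channel, has its TSS 3661 bp from the nearest conservative summit. CG30403 has its nearest such summit at 6780 bp. Tango11, CG30398 and LBR, the lamin B receptor gene, lie on the far side of HmgD, with 13012, 12971 and 15662 bp to the nearest summit. Ppcdc and CG42496 share a start to the left of the window. There the optimal set had a peak 480 bp outside the window, from 21691713 to 21692008. Its signal was 61.4 and its score 918, and its summit lay 281 bp from the TSS of CG42496. In the ranked list behind the conservative set, the same peak had an IDR of 0.0695, so it was not conservative. Beyond the pair, the next conservative peaks were 27.4 kb to the left and 132 kb to the right.

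Close groups of conservative summits were uncommon. Of the 3015 conservative peaks, 54.0% had no other summit within 5 kb and 185 (6.14%) had at least 3. Runs of 4 summits within 4.02 kb or less occurred 29 times, at 27 separate places of which the pair is one. These counts describe the whole set, and the pair was not chosen independently of them.

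No second copy of the 4 peak sequences was found in the genome. Each peak matched itself over its full length and gave 0 other matches of 50 bp or more at 80% identity or higher. The 201 bases around the strongest summit held 34.8% G and C, below the median of all conservative peaks, 37.8%. In order of signal, the 3 other summits held 48.3%, 41.8% and 56.7%. The longest run of a single A or T was 9 bases at the strongest summit, and 250 conservative peaks (8.29%) had a run of that length or longer. The weakest peak, upstream of HmgZ-RB, was thus the richest in G and C, above 95.6% of conservative peaks.

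The 201 bases at each summit were also searched for 9 short motifs, on either strand. Of these the strongest summit held the TATA box (TATAAA), present at 28.9% of all conservative summits, and runs of AAAAAA (40.5%). The summit upstream of HmgD-RD held a GAGA factor site (GAGAG, 26.7%) and a BEAF-32 site (CGATA, 25.1%). The summit in the 5' UTR held E-boxes (CANNTG, 61.5%), TATA boxes and AAAAAA, and the one upstream of HmgZ-RB an E-box and Pho sites (GCCAT, 29.0%). The Zelda site (CAGGTAG, 0.896%), the Sox site (AACAAT, 20.9%) and the ETS core (CCGGAA, 4.84%) were at none of the 4. No pair of these motifs is nested in another, though neighbouring matches may share letters. All of those found were at 25.1% or more of conservative summits. No motif was shared by all 4 peaks. The matches depended on the window. With 50 bp on either side, the GAGA factor site upstream of HmgD-RD, the AAAAAA runs of the strongest peak and the TATA boxes in the 5' UTR had 0 matches. Over the whole peak, the one upstream of HmgD-RD also held 3 Pho sites, the strongest 2 E-boxes and the one upstream of HmgZ-RB a BEAF-32 site.

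The 5 genes most like the pair by the strength of their strongest peak, over the conservative set and both replicates, were CG18549, CG5509, Desat1, vrs and Ssl1. The distance, on the log2 scale over these 3 signals, was 0.14 for the first 4 genes, which share a single peak with a signal of 722 (replicate signals 440 and 272). That peak lies 134 bp upstream of the CG18549 start. Ssl1, which encodes a TFIIH subunit, was at 0.22, with a signal of 657 (406 and 261) and its summit 204 bp upstream of its start. These 5 genes stand for only 2 separate peaks, and both lie nearer to a TSS than the 572 bp of the HmgD and HmgZ peak. The following bases are printed so that the sequence under peaks of like strength, and under the peak of a relative of the pair, Dsp1, can be seen. Each is the 101 bases around the summit on the plus strand of Release 6, read from RefSeq's copy, with matches to the 9 motifs in capitals.
CG18549, chr3R:12449112-12449212: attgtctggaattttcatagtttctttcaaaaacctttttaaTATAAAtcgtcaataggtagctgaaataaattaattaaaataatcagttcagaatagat
Ssl1, chr3L:22878835-22878935: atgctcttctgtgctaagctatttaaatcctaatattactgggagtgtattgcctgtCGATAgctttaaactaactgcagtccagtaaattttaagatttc
Dsp1, chrX:16335353-16335453: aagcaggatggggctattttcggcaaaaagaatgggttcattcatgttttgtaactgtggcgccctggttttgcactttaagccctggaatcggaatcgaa
The CG18549 summit held a TATA box, as the strongest peak of the pair did, and the Ssl1 summit a BEAF-32 site. Within 50 bp on either side, the TATA box was at 17.1% of all conservative summits and the BEAF-32 site at 13.7%. Over 201 bases the CG18549 and Ssl1 summits held 32.3% and 38.3% G and C, with longest runs of 5 and 6 bases. The Dsp1 summit, at 41.8%, held none of the 9 motifs in these 101 bases and had a run of 9 bases within the 201.

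Other HMG box genes had a conservative peak about as often as protein-coding genes did. None had one as strong as the pair, which was itself chosen by its signal. Of 20 such genes, 9 had a conservative peak within 5 kb (45.0%), against 35.3% of protein-coding genes, and the pair shares its peaks among these 9. Without the pair it was 7 of 18 (38.9%), with a median strongest signal of 97.5, against 101 over all genes with a peak. Sox14, a factor of the ecdysone response, had the strongest, 466.8 (replicate signals 255 and 215), 260 bp from its TSS. The repressor gene cic had 5 peaks, of which the strongest was 157 (67.0 and 90.2), and Sox15 had 2, up to 119 (41.3 and 82.5). Dsp1, an HMGB-type protein gene, had 1 peak of 97.5 (56.4 and 41.1), 781 bp from its TSS.

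Sox100B had 2 peaks, up to 73.0, TFAM, the mitochondrial transcription factor A gene, had 1 of 60.8, and Sox21b had 1 of 52.2. No peak lay within 5 kb of Ssrp, the HMG box subunit of the FACT histone chaperone, or of Bap111 and polybromo, subunits of Brahma remodelling complexes. The same held for tHMG1, tHMG2, pan, D, SoxN, Sox21a, Sox102F and mael. Within 500 bp of a TSS the count was 2 of 20, Sox14 and HmgZ, against 11.3% of protein-coding genes. The share within 5 kb without the pair, 38.9%, lies near the 35.3% of protein-coding genes. Without the pair, the count within 500 bp of a TSS was 1 of 18, Sox14.

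**Figure D4:**
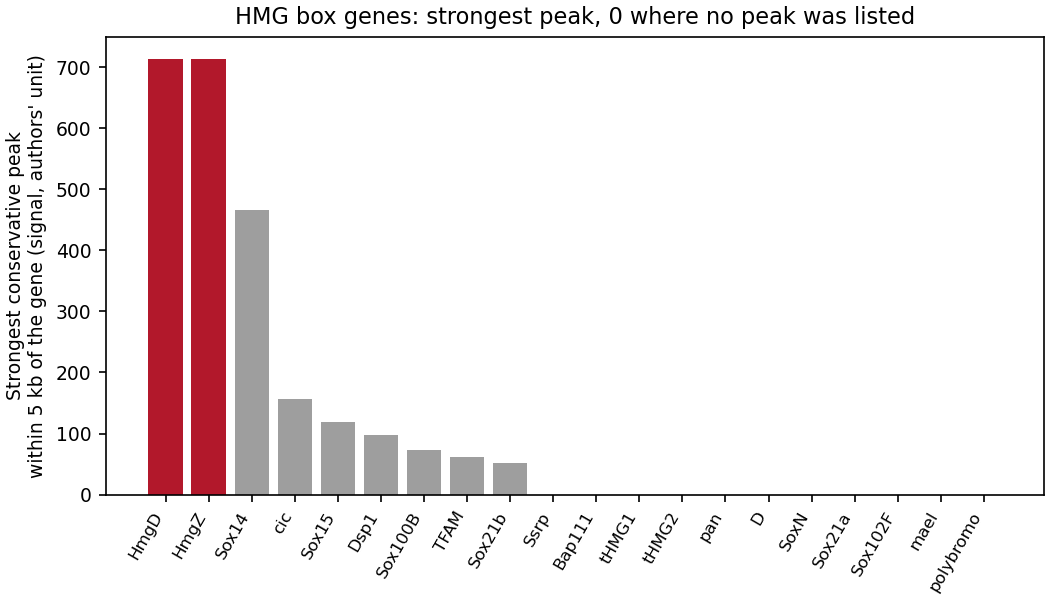
Signal of the strongest conservative peak within 5 kb of each of 20 HMG box genes, on a linear axis from 0, with HmgD and HmgZ in red and bars at 0 where no peak was listed. HmgD and HmgZ share the peak of 714, Sox14 follows at 466.8, and 11 genes have none.

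Of 33 genes for linker histones and other chromatin proteins, 17 had a conservative peak within 5 kb (51.5%), against 35.3% of protein-coding genes. Within 500 bp of a TSS it was 7 of 33 (21.2%), against 11.3%. These differences were not tested. The strongest was near Caf1-55, a histone-binding subunit, with a signal of 727 (398 and 332), but 3944 bp from its TSS. At a TSS the strongest was that of brm, the Brahma ATPase gene, with 325 (190.0 and 135) at 153 bp. The FACT subunit gene dre4 had a peak of 69.6 at a TSS. BigH1, the embryonic linker histone gene, and the 2 linker histone genes read, His1:CG31617 and His1:CG33801, had none. The His1 genes, unlike BigH1, are repeated many times over, so reads from them cannot be placed with certainty. Whether this bears on their lack of peaks was not tested.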

How the data were processed

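Peak lists from 2 ChIP-seq libraries of a CG5953-eGFP fusion in embryos were used. Per the labels, chromatin was sonicated to 200 to 800 bp, which limits how finely a summit can be placed. Per the labels, peaks are on dm6; each library and both together have ranked and thresholded lists. Which aligner and peak caller made them is not given in the sources used here. The authors' signal value has no stated unit; at conservative peaks it was close to the sum of the replicates' own signals (median ratio 0.994, over 2990 peaks with a match). The deposited score ends at 1000, and the deposited −log10 of the global IDR gave the IDR values. Read depth cannot be had from these lists and is unknown.

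The Ensembl release 115 annotation (BDGP6, dm6 coordinates) and RefSeq's Release 6 sequence were used. Transposable elements, pseudogenes and 1 conservative peak on a scaffold were left out, so 3015 of 3016 remain. A peak counted for a gene within 5 kb by an overlap of at least 1 bp, and for a TSS by its summit. A replicate's signal was read from its own ranked list, at whichever overlapping peak was strongest. The planned source, the signal columns of the ranked list of both libraries, does not name the replicate of each column and became an alternative. Python 3.11.15, pandas 2.3.3, numpy 2.4.6, matplotlib 3.10.9, Biopython 1.88 and BLAST 2.17.0 were used, and assignment of peaks to genes was tested on simulated data. Named genes were the pair, the genes overlapping the window, the members of 2 gene lists, and the 5 genes with the most similar strongest peak. Alternatives were other windows, lists, thresholds and each replicate alone. The members and lists were chosen with earlier results of these data known, and no test was made.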

Additional observations from a re-analysis of the deposited data

How the results depend on the processing

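The 4 conservative peaks around the pair were also counted with windows of 2 and 10 kb, with the optimal set and by summit, and 3 were left at a score of 1000. Only 2 peaks were found in either replicate's own list, and 2 had at least the median signal of the set. The strongest signal was 248 to 457 when 1 replicate was left out. The log2 ratio of the replicates was 0.73 after scaling by each replicate's median. The number of genes with a stronger peak within 5 kb was 49 for both HmgD and HmgZ. It was 27 without replicate 2 and 112 without replicate 1. With a limit of 2 kb it was 32, and with 10 kb it was 72. It was 1392 for HmgZ when only summits within 500 bp of a TSS counted, which leaves HmgD with none. The count of HMG box genes at a TSS, 2 of 20, became 0 with 250 bp, against 8.73% of protein-coding genes. With 1000 bp it was 5 (25%), against 13.8%, but these 5 include HmgD and HmgZ, which were chosen by their signals. With 500 bp the count was 1 (5%) in each replicate's own list, against 8.09% of genes in replicate 1 and 7.35% in replicate 2. The cause of these shifts was not tested. The depth of the libraries is unknown, and 2 replicates give a wide error.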
